A study of Mus musculus with 71 samples.

Results

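The genes described here are 171 mouse genes that were abundant in wild-type oocytes grown in culture and lower in oocytes lacking any of 7 regulators: Lhx8, Figla and Stat3 at day 11, and Nobox, Sohlh1, Tbpl2 and Dynll1 at day 13. They were chosen from 15140 genes with values. A gene had to average at least 10 TPM, a length-scaled share of a library's transcripts, in wild-type oocytes of both days, which 5834 genes did. Its score was the smallest of the 7 wild-type minus knockout differences in mean log2(TPM + 1), and the 200 genes of highest score were kept. Of these, 29 were left out by name, by a list that includes the zona pellucida genes, Gdf9, Padi6, Npm2, Zar1, Stat3 and Tbpl2. Levels in those 7 knockouts and in wild type therefore chose the genes and are given below as a description with no test. The libraries of directly induced oocyte-like cells (DIOLs) and of oocytes taken from ovaries had no part in the choice, and the genes were tested there.

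A primordial oocyte rests in meiotic arrest inside a ring of flat somatic cells, and its growth begins when a small set of germ-cell transcription factors switches on the genes of the egg. Sohlh1 and Figla are basic helix-loop-helix proteins, Lhx8 is a LIM-homeodomain protein, Nobox a homeobox protein, Tbpl2 a germ-cell relative of the TATA-binding protein, Stat3 a signal-dependent transcription factor and Dynll1 a dynein light chain that binds many partners. The growing oocyte stores messenger RNAs, and during meiotic maturation, when transcription is silent, many of them are translated or degraded.

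All samples were of strain C57BL/6 X 129. The cultured oocytes came from embryonic stem cells (ESCs) with Blimp1-Venus and Stella-CFP reporters, which were turned into primordial germ cell-like cells and combined with the somatic cells of embryonic day 12.5 female gonads into reconstituted ovaries. ICI182780 was in the medium from day 7 to day 10, and Stella-CFP-positive oocytes were sorted at day 11 (wild type and Lhx8, Figla, Stat3 and Sub1 knockouts) or day 13 (wild type and 15 knockouts). The DIOLs have the genotype MGA8 and were induced from ESCs with Shield1. The labels do not name the genes that MGA8 introduces, so RNA of an introduced gene cannot be told apart from that of the cell's own copy. Direct induction also used SCF and Y-27632. For the MII DIOLs the cells were instead combined with such gonadal somatic cells, follicles were isolated and grown, and oocytes were matured in vitro to metaphase II. The DIOLs.S libraries cover days 1, 3, 5, 7 and 14 and the DIOLs libraries days 5, 10, 15 and 25, and the labels do not explain the letter S. The oocytes from ovaries were germinal vesicle (GV) oocytes with both reporters, labelled incompetent or competent, for which column names give 2 and 3 weeks. Each group has 2 libraries and each GV group 3. Nothing says whether they came from separate cultures or animals, so a p-value speaks only of how far libraries of a group lie apart, which may be technical. The libraries were made from poly(A)-selected bulk RNA, in which fewer cells of a type and less RNA per cell cannot be told apart.

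Of the targets of the 7 knockouts, Lhx8, Stat3, Sohlh1, Tbpl2 and Dynll1 were lower in their own knockout, by log2 differences from -1.69 (Tbpl2) to -8.52 (Sohlh1). Figla and Nobox were not analysed here. The table covers almost only chromosomes 1 to 5 and 10 to 19, and genes elsewhere, among them most NLR-family genes, were not analysed here. Sub1 averaged 330.2 TPM in the libraries labelled Sub1 knockout against 464.2 in wild type, and Ccnk averaged 170.8 TPM in the libraries labelled Ccnk knockout against 168.3 in wild type. The summed level of 9 measured oocyte markers was 8541 to 8770 TPM in day 11 wild type and 58676 to 60099 TPM in day 13 wild type. The 2 Sohlh1 knockout libraries stood apart from each other (r = 0.873 across genes, at least 0.967 in every other group), and 1 of them held 3936 TPM of macrophage and blood markers. With that knockout left out of the score, 146 of the 171 genes were kept.

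Promoter sequence was available from RefSeq (GRCm38.p6) for 138 of the 171 genes, matched by symbol, from 250 bases before the annotated start to 50 bases after it. E-boxes are the words that helix-loop-helix proteins bind. The word CAGCTG, which reads alike on both strands, was in 41 promoters, 29.7%, against 13.6% of the promoters of other genes with 10 TPM or more in both wild types and 16.0% of those of all tested genes. CAGGTG on either strand was in 27.5%, against 16.2% and 18.9%. For a further E-box, CACGTG, the shares were 5.1% against 11.9% and 9.9%. These shares were not tested. TATAAA on the gene's own strand, 15 to 45 bases before the start, was in 5 promoters, 3.6%, against 0.7% and 2.0%. The shares of homeodomain words TAATTA or TAATTG (8.7% against 6.2% and 7.6%), of the LIM-homeodomain word TGATTG (15.2% against 14.6% and 14.3%) and of the STAT word TTCNNNGAA (5.1% against 6.1% and 6.9%), searched on both strands, lay closer together. Words overlapping each other were each counted. The promoters also differed in composition, which these shares do not adjust for: median GC content was 58.2% against 62.3% in the other genes and 60.3% in all tested genes, and 24.6% of them held 5 or fewer CpG dinucleotides against 3.8% and 15.5%. A match is a string of letters and not a measured binding site.

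The 200 bases before the annotated start are shown for 6 genes, the oocyte-enriched genes Miox, E330034G19Rik, Accsl, E330017A01Rik and Tcl1b2, which are among the 15 of highest score, and the Notch ligand gene Jag1. They were picked because each holds a word counted above. Capitals mark CAGGTG (or CACCTG, its complement), the word CAGCTG and the TATAAA before the RefSeq start of Miox. Positions are chr15:89334273-89334472 on the plus strand (Miox), chr14:24293014-24293213 plus (E330034G19Rik), chr2:93930483-93930682 minus (Accsl), chr16:58638404-58638603 minus (E330017A01Rik), chr12:105146819-105147018 plus (Tcl1b2) and chr2:137116521-137116720 minus (Jag1), each written 5′ to 3′ on the gene's strand. RefSeq and GENCODE M21 place several of these starts differently, and no start was measured here. GENCODE M21 starts Accsl at chr2:93869157, Tcl1b2 at chr12:105146014 and Miox at chr15:89334398. It starts E330017A01Rik at chr16:58638739 and Jag1 at chr2:137116644. The Accsl bases shown thus lie far upstream of its GENCODE gene, and the Tcl1b2 and E330017A01Rik bases lie inside their GENCODE genes. The marked words of Miox and Jag1 also lie inside their GENCODE genes. For E330034G19Rik the bases shown end just before its GENCODE start. Whether any stretch shown is the promoter in use in these cells is not known.
Miox: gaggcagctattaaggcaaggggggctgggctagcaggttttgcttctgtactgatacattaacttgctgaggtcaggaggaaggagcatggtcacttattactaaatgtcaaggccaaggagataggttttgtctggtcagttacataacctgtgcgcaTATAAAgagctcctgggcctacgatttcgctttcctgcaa
E330034G19Rik: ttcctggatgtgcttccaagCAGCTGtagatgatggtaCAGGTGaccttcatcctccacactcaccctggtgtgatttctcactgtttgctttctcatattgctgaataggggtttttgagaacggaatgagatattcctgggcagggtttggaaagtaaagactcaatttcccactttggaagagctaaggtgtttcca
Accsl: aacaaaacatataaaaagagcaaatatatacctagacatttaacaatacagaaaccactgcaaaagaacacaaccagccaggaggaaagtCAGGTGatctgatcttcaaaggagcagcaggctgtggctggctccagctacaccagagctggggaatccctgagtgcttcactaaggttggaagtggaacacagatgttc
E330017A01Rik: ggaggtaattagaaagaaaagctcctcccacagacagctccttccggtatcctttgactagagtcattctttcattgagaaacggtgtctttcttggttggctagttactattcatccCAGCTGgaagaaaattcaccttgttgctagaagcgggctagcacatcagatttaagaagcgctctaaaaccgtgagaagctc
Tcl1b2: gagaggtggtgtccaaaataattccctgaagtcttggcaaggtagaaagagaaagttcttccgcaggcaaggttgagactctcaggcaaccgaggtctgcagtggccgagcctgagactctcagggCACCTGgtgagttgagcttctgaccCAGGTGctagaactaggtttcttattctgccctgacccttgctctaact
Jag1: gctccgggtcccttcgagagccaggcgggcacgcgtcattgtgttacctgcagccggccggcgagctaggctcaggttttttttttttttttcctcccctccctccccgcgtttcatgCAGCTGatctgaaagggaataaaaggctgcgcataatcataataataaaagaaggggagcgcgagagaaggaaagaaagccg
Miox has TATAAA 40 bases before its RefSeq start and no marked E-box word. E330034G19Rik has CAGCTG and CAGGTG 180 and 162 bases before its start, and Tcl1b2 has CACCTG and CAGGTG 74 and 49 bases before its RefSeq start. Accsl has CAGGTG 110 bases before its RefSeq start, and E330017A01Rik and Jag1 each have CAGCTG 82 bases before theirs.

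All 171 genes have a position in GENCODE M21 (mm10), 167 of them as protein-coding genes. They were spread over the chromosomes, with 13 pairs of neighbours less than 200 kb apart. The T-cell leukaemia 1 family stood together on chromosome 12: Tcl1b2 lies 4.5 kb from Tcl1b1, which lies 50.1 kb from Tcl1. The phospholipase genes Pla2g4e and Pla2g4f lie 54.6 kb apart on chromosome 2, and Il17rb and the choline dehydrogenase gene Chdh lie 0.1 kb apart on chromosome 14. Gng3 and Bscl2 overlap, and how reads shared by overlapping genes, or by close relatives such as Tcl1b1 and Tcl1b2, were assigned is not given in the sources used here, so their single values are uncertain.

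In the 7 knockouts that chose them, these genes were lowest on the median in the Dynll1 knockout, where 9.25% of the day 13 wild-type level was left, and least low in the Tbpl2 knockout, where 34.8% was left. The median share left was 15.0% in the Lhx8, 17.8% in the Figla and 12.5% in the Stat3 knockout at day 11, and 14.4% in the Nobox and 13.8% in the Sohlh1 knockout at day 13. The Tbpl2 knockout set the score of 104 of the 171 genes, being the weakest of the 7 differences for them, while the largest difference was in the Sohlh1 knockout for 58, the Dynll1 knockout for 53 and the Nobox knockout for 29. Scores ran from 3.75 for Miox to 0.94 for Cdca5, with Nos1 at 0.95 and Sipa1 at 0.94. Just outside the limit were Ptprj and Lcp1 at 0.94 and 2700054A10Rik at 0.94, which differ from Sipa1 and Cdca5 only in the third decimal. The plot of knockout minus wild type shows the spread of all 171 genes in each knockout.

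**Figure D1:**
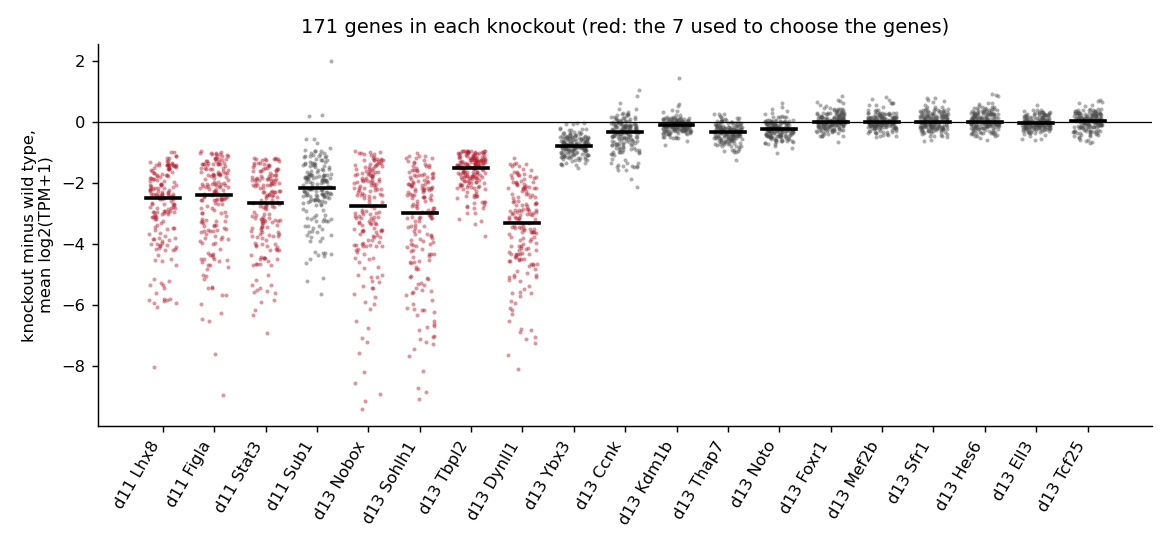
Each point is 1 of the 171 genes; the vertical axis is the difference of group means of log2(TPM + 1) between a knockout and wild type of the same day (2 libraries each), and black lines are medians. The 7 knockouts that chose the genes (red) have medians from -1.50 (Tbpl2) to -3.31 (Dynll1), the libraries labelled Sub1 knockout -2.16, and the other 11 day 13 knockouts from -0.78 (Ybx3) to 0.04 (Tcf25).

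Miox, which encodes myo-inositol oxygenase, had the highest score. It stood at 134 and 144 TPM in the 2 wild-type libraries of day 11 and at 2.76 and 1.78 TPM in the Lhx8, 1.31 and 0 in the Figla and 0.54 and 2.61 in the Stat3 knockout libraries. At day 13 it stood at 1826 and 1793 TPM in wild type, 3.88 and 0.47 in the Nobox, 10.3 and 0 in the Sohlh1, 12.1 and 9.97 in the Dynll1 and 151 and 119 in the Tbpl2 knockout. Every knockout library was thus far below the wild type of its day, and Tbpl2 stood between the others and wild type. Eif4e1b, an oocyte form of the cap-binding translation factor eIF4E, showed the same order at day 13: 1051 and 1069 TPM in wild type, 111 and 112 in the Tbpl2 knockout and 0 to 26.5 in the Nobox, Sohlh1 and Dynll1 knockouts. Astl, which encodes the cortical-granule protease ovastacin that cleaves ZP2 after fertilization, stood at 1527 and 1487 TPM in wild type and 255 and 199 in the Tbpl2 knockout. Its other day 13 knockout libraries held 1.32 to 18.9 TPM. Mos, the kinase that holds the mature egg at metaphase II, was listed at 0 in both Sohlh1 libraries and at 0 in 1 library each of the Nobox and Dynll1 knockouts, against 159 and 151 TPM in wild type and 22.1 and 20.1 TPM in the Tbpl2 knockout.

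Of the regulators whose knockouts chose the genes, Lhx8 was part of the set. Stat3 and Tbpl2 have names on the list of genes left out, and Figla and Nobox were not analysed here. These other regulators therefore could not be members, and how many regulators are in the set is no finding. Lhx8 RNA stood at 464 and 455 TPM in day 13 wild type, was listed at 0 in both Sohlh1 knockout libraries, and stood at 36.2 and 41.9 TPM in the Nobox and 196 and 193 in the Tbpl2 knockout. The Lhx8 knockout libraries kept 43.7 and 47.8 TPM of Lhx8 RNA, close to the 32.2 and 22.7 TPM of the Figla and 27.4 and 32.1 TPM of the Stat3 knockout. Uchl1, a neuronal and germ-cell ubiquitin hydrolase, was the most abundant of the 171 genes in day 13 wild type, at 13872 and 13506 TPM. It was lowest in the Figla knockout, at 189 and 214 TPM against 6798 and 6714 TPM in day 11 wild type. In the Lhx8 knockout of the same day 2345 and 2302 TPM were left, so the Figla libraries were the lower of these groups.

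Markers of earlier stages and of other cells differed in these knockouts too. The sum of 16 early meiotic prophase genes was 1882 to 1974 TPM in day 11 wild type and 5188 to 6801 TPM in the Lhx8, Figla and Stat3 knockouts, and 1316 to 1349 TPM in day 13 wild type and 2143 to 4252 TPM in the 4 knockouts of that day. The sum of 20 granulosa markers was 46.2 to 51.0 TPM in day 13 wild type and 253 to 1135 TPM in those 4 knockouts. At day 11 it was 1258 TPM or more in both wild-type libraries, 1816 to 1841 in the Lhx8, 1171 to 1177 in the Figla and 1093 to 1126 in the Stat3 knockout, so it was below wild type in the last 2. The sum of 12 stromal markers was 907 to 947 TPM in day 11 wild type. It was 844 to 856 TPM in the Figla, 951 to 1033 in the Stat3 and 1499 to 1549 in the Lhx8 knockout. At day 13 it was 39.9 to 43.5 TPM in wild type and 275 to 3889 TPM in the 4 knockouts. The sum of 14 macrophage and blood markers was 27.9 to 46.2 TPM in day 11 wild type. It was 52.5 to 64.0 TPM in the Stat3, 418.5 to 471 in the Lhx8 and 488 to 498 in the Figla knockout. At day 13 wild type held 69.0 to 87.2 TPM of these markers and the Tbpl2 knockout 36.1 to 37.3. The Nobox knockout held 70.39 to 93.45 TPM, the Dynll1 315 to 322 and the Sohlh1 197 to 3936. Their part in the low levels was not tested.

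Knockouts outside the choice differed widely. In the libraries labelled Sub1 knockout, compared with the day 11 wild type that the choice used, the median of the 171 genes was lower by 2.16 on the log2 scale, and 160 genes were lower by at least 1, as were 10.1% of the 5663 other genes at 10 TPM or more. The 1 gene higher by at least 1 was Ccl6, a macrophage chemokine gene, at 47.2 and 45.5 TPM against 14.7 and 8.13 in wild type, beside 3261 to 3334 TPM of macrophage and blood markers in those libraries against 27.9 to 46.2 in wild type. Early meiotic genes there summed to 4912 to 5013 TPM, and the part of either in these levels was not tested. In the Ybx3 knockout the median was lower by 0.78 and 38 genes were lower by at least 1, against 0.92% of the other genes. In the libraries labelled Ccnk knockout it was lower by 0.35 with 20 such genes, against 0.48% of the others. In the other 9 knockouts the medians lay between -0.33 (Thap7) and 0.04 (Tcf25), with at most 1 gene lower by at least 1.

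Since those differences share the wild-type libraries of the choice, each of the 11 day 13 knockouts outside it was tested against the mean of the other 10. The test was limma on log2(TPM + 1). A gene is called at an adjusted p under 0.05 and a log2 change of at least 1 in size. The log2 changes of this test use no library of the choice. The fit held all cultured oocyte libraries, however, so the spread behind its p-values came partly from libraries that chose the genes. These p-values and calls are therefore not fully independent of the choice. In the Ybx3 knockout 11 of the 171 genes fell and none rose (limma; 129 had an unadjusted p under 0.05), where 1.82% of all 12306 tested genes fell and 13.6% rose, and the members' median was -0.66 against 0.12 for all genes. Accsl, an aminocyclopropane carboxylate synthase-like gene, stood at 36.3 and 34.4 TPM against 70.3 and 64.5 in day 13 wild type, and fell by 1.15 on the log2 scale against the other knockouts. Ankrd44, a regulatory subunit gene of protein phosphatase 6, stood at 19.2 and 16.8 TPM against 48.7 and 47.4 in wild type (log2 change -1.22, SE 0.17, limma adjusted p 1.9e-06). Gulo (-1.40) and Ttc34 (-1.20) also fell, but at a pseudocount of 0.1 their limma adjusted p values were 0.065 and 0.057. Without replicate 2 of the Ybx3 knockout the Gulo value was -0.99. In the same libraries 17 of 19 tested granulosa markers, 9 of 14 macrophage and blood markers, 5 of 12 stromal markers and 13 of 16 early meiotic genes rose, and 1 stromal marker fell. After rescaling by the median of ratios 51 of the 171 genes fell. Granulosa markers summed to 1515 to 1558 TPM against 67.1 to 383 in the other 10 knockouts, with Amhr2 at 288 and 278 TPM, and oocyte markers to 33100 to 33767 TPM against 40616 to 66939. Their part in the fall of the 171 genes was not tested.

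In the libraries labelled Ccnk knockout, 9 genes fell and none rose (limma; 60 had an unadjusted p under 0.05), where 0.642% of all genes fell and 1.15% rose. After rescaling by the median of ratios 19 fell. Mos stood at 42.2 and 41.9 TPM there against 159 and 151 in wild type, and its log2 change against the other knockouts was -1.78 (SE 0.38, limma adjusted p 0.0017). This call was not kept with a pseudocount of 0.1 (limma adjusted p 0.15) or without replicate 1 (limma adjusted p 0.057) or 2 (0.055) of that group. BB557941 (-1.54) and Ccl6 (-1.50) also fell, and without replicate 1 their limma adjusted p values were 0.064 and 0.19. Of 16 early meiotic genes, 8 rose in these libraries, and their part was not tested. In the Kdm1b knockout Ccl6 rose, at 47.0 and 55.8 TPM against 20.9 and 16.2 in wild type (log2 change 1.65, limma adjusted p 0.019, and 0.28 at a pseudocount of 0.1), where 0.674% of all genes rose and 0.146% fell. Without replicate 1 or 2 of that knockout its limma adjusted p was 0.13 or 0.33. Macrophage and blood markers summed to 227 to 257 TPM in the Kdm1b libraries and 69.0 to 87.2 in wild type, and their part was not tested. No member was called by limma in the Thap7, Noto, Foxr1, Mef2b, Sfr1, Hes6, Ell3 or Tcf25 knockouts, where 32, 31, 42, 28, 37, 40, 22 and 54 members had an unadjusted p under 0.05. Of all genes 0.252%, 0.211%, 0.065%, 0.252%, 0.0569%, 0.878%, 1.36% and 2.41% were called there, in the same order.

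From day 11 to day 13 the wild-type level of 168 of the 171 genes was higher, by a median of 1.02 on the log2 scale, and 86 genes were higher by at least 1. Among the other genes at 10 TPM or more the median was -0.29, with 2.72% higher and 10.1% lower by at least 1. This comparison uses the libraries of the choice and was not tested. Granulosa markers summed to 1258 TPM or more in both day 11 wild-type libraries and to 46.2 to 51.0 TPM in day 13 wild type. Stromal markers summed to 907 to 947 TPM in day 11 and 39.9 to 43.5 TPM in day 13 wild type. Macrophage and blood markers were higher instead, at 69.0 to 87.2 TPM at day 13 against 27.9 to 46.2 at day 11. The part of these markers in the rise was not tested. Together the 171 genes made up 2.54% and 2.51% of all TPM in day 11 wild type and 5.66% and 5.62% in day 13 wild type. In the 7 knockouts the share was between 0.434% and 1.79%. Among all groups the incompetent GV oocytes had the highest share, 7.99% to 8.32%, and competent GV oocytes held 7.58% to 7.74%.

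**Figure D2:**
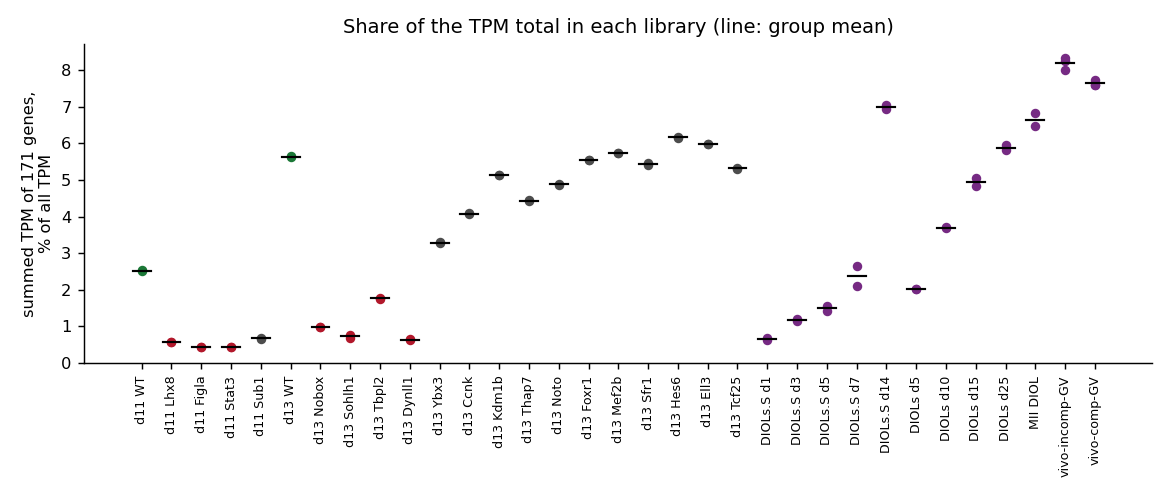
Summed TPM of the 171 genes as a percentage of all TPM, 1 point per library with a line at the group mean; wild type in green, the 7 knockouts that chose the genes in red, other knockouts in grey, DIOLs and GV oocytes in purple. Wild type at day 13 lies at 5.66% and 5.62%, and the DIOLs.S libraries run from 0.633% at day 1 to 7.04% at day 14.

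In DIOLs.S cells, induced directly from ESCs, 153 of the 171 genes rose and 3 fell between day 1 and day 14. Of all 11603 tested genes 16.8% rose and 36.5% fell, and of the other genes at 10 TPM or more in wild type 19.5% rose and 27.8% fell. The members' median log2 change was 3.08 and that of all genes -0.45. At day 1 the 171 genes held 0.633% and 0.681% of TPM, within the range of the 7 knockouts. The share was 1.22% and 1.16% at day 3, 1.56% and 1.43% at day 5, 2.11% and 2.65% at day 7 and 7.04% and 6.93% at day 14, above both wild-type libraries of day 13.

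Astl had the largest rise of the named genes: it stood at 0.41 and 0.08 TPM at day 1, 79.5 and 73.1 at day 3, 175 and 152 at day 5, 253 and 303 at day 7 and 2738 and 2590 at day 14 (log2 change from day 1 to 14 of 11.08, SE 0.12, limma adjusted p 7.2e-23). Miox followed, from 3.50 and 0.77 TPM at day 1 through 85.9 and 113 at day 3 and 647 and 935 at day 7 to 3789 and 3575 at day 14 (log2 change 10.35, SE 0.26, limma adjusted p 1e-17). Both genes were thus far above their day 1 level by day 3, and both passed their day 13 wild-type level by day 14. Eif4e1b was later: it stood at 4.99 and 3.72 TPM at day 1, 7.06 and 9.08 at day 3, 28.7 and 25.7 at day 5, 95.8 and 174 at day 7 and 2262 and 2188 at day 14. Its log2 change was 8.71 in all, of which 4.09 came between day 7 and day 14. Ccno, a cyclin-family gene, rose by 8.10 and E330034G19Rik, an oocyte gene of unknown role, by 8.70 (log2).

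The rise came in steps. From day 1 to day 3, 98 genes rose and 6 fell (11.9% and 9.0% of all genes), from day 3 to day 5, 27 rose and 3 fell (3.81% and 4.14%), from day 5 to day 7, 43 rose and none fell (2.96% and 5.09%, limma, with 127 members at an unadjusted p under 0.05 in either direction), and from day 7 to day 14, 83 rose and 8 fell (7.78% and 32.8%). Both libraries reached 10 TPM by day 1 for 91 genes, first at day 3 for 36, at day 5 for 17, at day 7 for 12 and at day 14 for 11. For Fbxo40, Ccl6, Krt36 and Pla2g4f they did so on no day. Besides Astl and Miox, the early risers included Myot, a Z-disc protein gene of muscle, from 0.07 and 0.09 TPM to 33.8 and 32.2 (log2 change 4.98), and the tubulin-modifying Ttll11 (4.68). Genes with large rises from day 7 to day 14 were the kinesin gene Kif17 (5.16), Eif4e1b, the Ras regulator Rasa4 (3.71) and the leukotriene synthase gene Ltc4s (3.33). Rasa4 was at 10 TPM or more in both libraries of day 1 and had first fallen, by a log2 change of -3.06 from day 1 to day 3.

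Some genes were already on in the first days and went down. Pfkfb3, which makes the regulator of glycolytic phosphofructokinase, stood at 81.2 and 80.6 TPM at day 1, 11.1 and 7.43 at day 3 and 31.8 and 29.0 at day 14 (log2 change from day 1 to 14 of -1.39). With Srgn (-1.87), a proteoglycan gene, and the kinase Tnik (-1.42) it made up the 3 genes that fell. Wscd2 went up and down: it stood at 2.73 and 3.65 TPM at day 1, 92.9 and 79.1 at day 5 and 11.0 and 14.8 at day 14, and it fell by 2.33 from day 7 to day 14. Uhrf1, the DNA-methylation cofactor that ESCs also use, stood at 555 and 638 TPM at day 1 and 766 and 784 at day 14 (log2 change 0.38, limma adjusted p 0.0098), which is below the size needed for a call.

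Beside this rise, 7 of 9 ESC markers and 8 of 12 stromal markers fell from day 1 to day 14. Of 9 oocyte markers 8 rose, and the sum of the 9 went from 367 to 422 TPM to 84219 to 87719 TPM. None of these oocyte markers is a member. However, Gdf9, Npm2, Padi6, Zar1, Zp1, Zp3 and Oosp1 have names on the list of genes left out, so they are not independent of the set. The granulosa sum at day 7 differed between the libraries, 644 and 2524 TPM, and was 56.9 to 91.5 TPM at day 14. Their part in the rise was not tested.

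**Figure D3:**
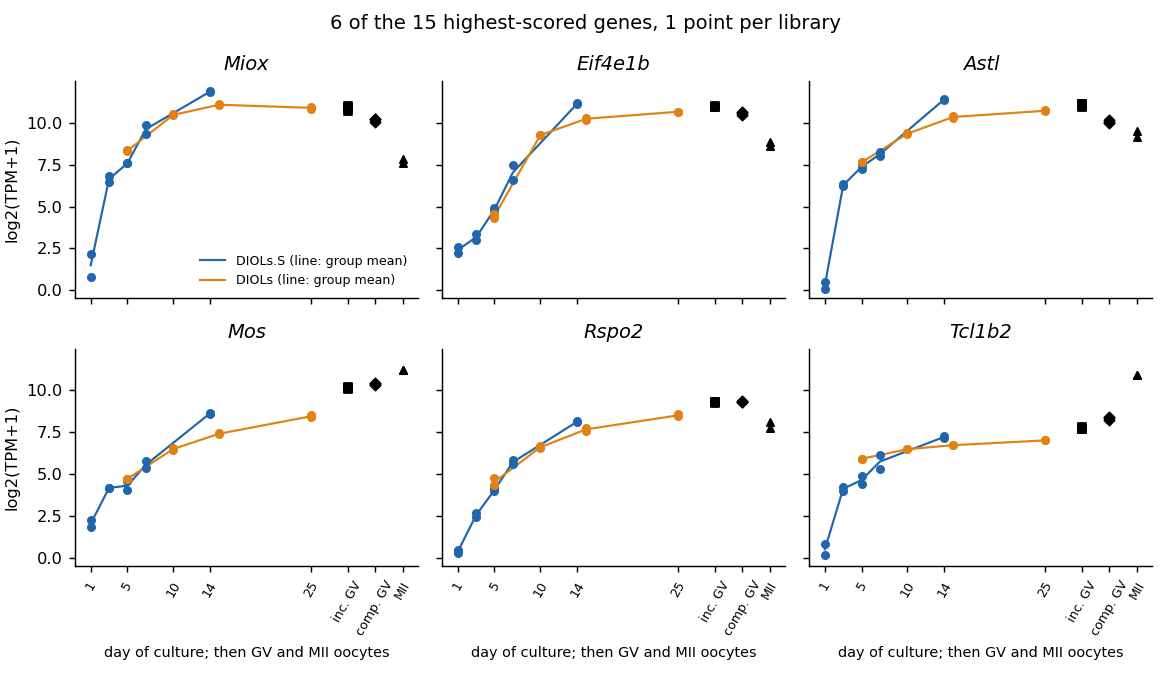
Expression of 6 genes as log2(TPM + 1) by day in DIOLs.S (blue) and DIOLs (orange) libraries, then in incompetent GV (squares), competent GV (diamonds) and MII DIOL (triangles) libraries, 1 point per library with lines through group means. Miox, Eif4e1b and Astl are lower in MII than in GV oocytes, while Mos and Tcl1b2 are at their highest in MII.

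The DIOLs libraries started higher. At day 5 the 171 genes held 2.03% of TPM in both libraries, and 17 genes were lower and 2 higher in DIOLs.S than in DIOLs of the same day (7.39% and 4.48% of all genes). Ccno, for example, stood at 430 and 437 TPM in DIOLs and 186 and 171 in DIOLs.S (log2 change -1.28, limma adjusted p 2.6e-08). From day 5 to day 10, 70 genes rose and 2 fell (3.92% and 19.2% of all genes), from day 10 to day 15, 7 rose and none fell (1.12% and 2.52%, limma, with 93 members at an unadjusted p under 0.05 in either direction), and from day 15 to day 25, 9 rose and 2 fell (4.38% and 3.19%). Between day 5 and day 25, 103 genes rose and 5 fell (10.9% and 33.4%), with a median log2 change of 1.39 against -0.50 for all genes. In the same course 7 of 9 oocyte markers rose, all 7 with names on the list of genes left out. Of the others, 8 of 12 stromal markers, 8 of 19 granulosa markers and 10 of 16 early meiotic genes fell. The stromal sum was 901 to 923 TPM at day 5 and 38.5 to 81.4 at day 25, and the part of these genes was not tested. Without DIOLs day 15 replicate 2 the calls of the last 2 steps numbered 15 and 7.

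Kif17, a motor of dendrites and cilia, had the largest change over the whole DIOLs course, from 0.90 and 0.54 TPM at day 5 through 21.3 and 20.1 at day 10 and 85.4 and 72.1 at day 15 to 157 and 162 at day 25 (log2 change 6.55, SE 0.22, limma adjusted p 6.5e-15). Eif4e1b went from 18.7 and 22.9 TPM to 603 and 617 at day 10 and 1610 and 1593 at day 25 (6.21, SE 0.18, limma adjusted p 6.4e-16), of which 4.81 came by day 10. Fbxo40, an F-box gene, rose by 5.16 and BB557941 by 5.29 on the log2 scale. Against these, Wscd2 fell from 143 and 133 TPM at day 5 to 36.7 and 36.2 at day 10 and 13.3 and 11.8 at day 25 (-3.36, SE 0.17, limma adjusted p 1.9e-12). Prr15l (-1.76), Ccdc24 (-1.70) and Lgalsl (-1.36) fell as well. After rescaling by the median of ratios the Lgalsl change was -0.90.

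Members that signal to the follicle or touch it differed in this course. Rspo2, a secreted amplifier of Wnt signalling, stood at 25.9 and 19.3 TPM at DIOLs day 5 and 379 and 349 at day 25 (log2 change 3.96). Gja4, the connexin of the oocyte's gap junctions with granulosa cells, stood at 107 and 110 TPM and then 573 and 580 (2.40). Jag1, a Notch ligand that the oocyte presents to granulosa cells, stood at 68.7 and 66.3 TPM and then 105 and 87.1 and was not called (0.50). Of the other 14 tested genes of egg surface, fertilization and junctions, 4 rose and 5 fell, and of the other 7 tested secreted factors 1 rose and 2 fell, between the same days.

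Among cell-cycle members, Mos (25.3 and 25.7 TPM at day 5, 336 and 364 at day 25, log2 change 3.73), the CDK-activating phosphatase gene Cdc25b (1.77) and Ccno (2.02) rose, while of the other 29 tested genes of meiotic arrest and resumption 7 rose and 4 fell. Of the other 25 genes of RNA storage and translation 5 rose and 6 fell beside the rise of Eif4e1b, and Lsm14b, an RNA-granule protein gene, changed by 0.52 and was not called. In the ubiquitin group Uchl1 (1.84), Uhrf1 (1.21) and the chromatin ligase gene Rnf168 (1.68) rose, against 2 rising and 4 falling of the other 14. Of 16 other genes that reviews give as targets of the oocyte factors, 12 rose and none fell. All 12 have names on the list of genes left out, among them Zp1, Zp3, Gdf9 and Oosp1, so they are no independent comparison.

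Against incompetent GV oocytes, DIOLs of day 25 had 32 of the 171 genes lower and 12 higher (13.5% and 12.8% of all genes), and DIOLs.S of day 14 had 41 lower and 14 higher (20.2% and 10.9%). With values rescaled by the median of ratios, the second pair was 31 and 20. Levels of most genes thus did not differ by a call, which does not show that they were equal. Miox is an example: 1861, 2021 and 1643 TPM in incompetent GV oocytes and 1974 and 1796 TPM in DIOLs of day 25 (log2 difference 0.04, SE 0.24). Accsl was the named gene furthest below in DIOLs of day 25, and in DIOLs.S Fbxo40 was (-4.11). Accsl stood at 871, 852 and 935 TPM in incompetent GV oocytes, 141 and 153 TPM in DIOLs of day 25 and 80.3 and 77.1 TPM in DIOLs.S of day 14 (log2 differences -2.58 and -3.48). Mos stood at 1180, 1138 and 1085 TPM in GV oocytes and 336 and 364 in DIOLs of day 25 (-1.69), and Gja4 at 1425, 1379 and 1381 TPM against 573 and 580 (-1.27). Ms4a1, known as the B-cell antigen CD20, was lower in both kinds of DIOLs (-2.44 and -3.33). For Accsl, Mos and Gja4 the highest DIOL library was below the lowest GV library.

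Other genes were higher in DIOLs. Myot stood at 23.6, 26.9 and 26.8 TPM in incompetent GV oocytes against 219 and 234 TPM in DIOLs of day 25 and 234 and 254 in DIOLs.S of day 14 (log2 differences 3.09 and 3.20), near its 271 and 250 TPM of day 13 wild type. Pla2g4f, a cytosolic phospholipase gene, stood at 1.10, 1.17 and 1.40 TPM in GV oocytes and 22.4 and 24.2 in DIOLs of day 25 (3.45), and 24.6 and 25.4 in day 13 wild type. Ada, adenosine deaminase, stood at 32.0, 24.1 and 30.5 TPM in GV oocytes and 173 and 168 in DIOLs of day 25 (2.53). In these 3 genes the levels of DIOLs lay nearer to those of cultured day 13 oocytes than to those of GV oocytes. The choice required at least 10 TPM in day 13 wild type, and the 3 genes were picked as higher in DIOLs, so no conclusion is drawn. Accsl, lower in DIOLs than in GV oocytes, was nearer to day 13 too. Its mean was 218% of day 13 wild type in DIOLs of day 25 and 1315% in incompetent GV oocytes.

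Between incompetent and competent GV oocytes 22 of the 171 genes were lower in competent oocytes and none was higher, where 7.42% of all tested genes were lower and 2.54% higher (limma; 109 members had an unadjusted p under 0.05 in either direction). Among other genes at 10 TPM or more in wild type 10.9% were lower and 2.01% higher, and among the members 12.9%, which is near this background. Myot again led (-2.48, SE 0.12, limma adjusted p 5.6e-12), with 4.71, 3.15 and 3.64 TPM in competent oocytes. Ip6k3, an inositol hexakisphosphate kinase gene, fell from 10.8, 13.0 and 11.8 TPM to 1.53, 0.97 and 1.65 (-2.44), and the asparaginase gene Aspg from 57.1, 55.5 and 51.3 TPM to 10.6, 7.34 and 11.4 (-2.39). Gtf2a1l, the germ-cell form of the TFIIA subunit that pairs with TBP-related factors, fell from 254, 269 and 248 TPM to 133, 112 and 121 (-1.08, SE 0.145, limma adjusted p 4.8e-06). Astl, at 2224, 2180 and 1928 TPM and then 1130, 1006 and 1055, changed by -0.99, just under the size needed for a call.

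At metaphase II the 171 genes divided. Compared with DIOLs of day 25, 120 were lower and 27 higher in MII DIOLs, where 37.8% of all genes were lower and 19.8% higher, and 51.7% and 21.1% of the other genes at 10 TPM or more in wild type. Their combined share was 6.83% and 6.47% of TPM against 5.95% and 5.82%. The 27 higher genes went from 1.09% to 5.80% of TPM and the 120 lower ones from 4.49% to 0.614%. The median level of the 27 was 177 TPM at day 25 and 1340 TPM in MII, and that of the 120 was 120 and 11.1 TPM. Rescaling by the median of ratios moved the median of all genes by 0.39 on the log2 scale here and the members' median from -2.41 to -1.53, and gave 98 lower and 36 higher. The MII cells were also made by another route, with gonadal somatic cells and follicle growth, so stage and route cannot be told apart in this comparison. Of 19 tested granulosa markers 10 were higher in MII DIOLs, whose sum was 479 and 915 TPM against 30.4 and 37.7 TPM at day 25, and their part was not tested.

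Tcl1, Tcl1b1 and Tcl1b2, the genes of the T-cell leukaemia 1 family in the set, rose together. Tcl1, a co-activator of AKT signalling that early embryos inherit, stood at 817 and 800 TPM at day 25 and 6809 and 7194 in MII (log2 change 3.11, SE 0.08, limma adjusted p 7.8e-18). Tcl1b2 stood at 129 TPM in both libraries of day 25 and 1958 and 1927 in MII (3.91, SE 0.20), and Tcl1b1 at 208 and 185 TPM and then 2089 and 2156 (3.43, SE 0.34). Mos stood at 336 and 364 TPM and then 2359 and 2395 (2.76, SE 0.14, limma adjusted p 2e-13). Accsl reached 2163 and 2154 TPM (3.87), E330034G19Rik 7195 and 7213 TPM (3.14) and the Wnt-pathway gene Zbed3 16043 and 13804 TPM (2.13). Securin (Pttg1), the protein that holds separase inactive until anaphase, stood at 571 and 595 TPM and then 1992 and 2096 (1.81), and Lsm14b at 1154 and 1067 TPM and then 3340 and 3201 (1.56). The other higher genes included Ccdc69 (3.98), the BMP receptor gene Bmpr1b (2.77), Med30 of the Mediator complex (2.64) and Jag1 (1.32).

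Among the genes that fell, Cpsf4l, a relative of a polyadenylation factor, went from 1092 and 1065 TPM to 4.95 and 3.47 (log2 change -7.71, SE 0.12, limma adjusted p 4.9e-21), and Myot from 219 and 234 TPM to 0.33 and 0 (-7.62). E330017A01Rik, second in level among the 171 genes in day 13 wild type, went from 2499 and 2680 TPM to 46.8 and 9.55 (-6.85), and Aven, an apoptosis inhibitor gene, and Sipa1, a Rap GTPase activator gene, fell by 6.00 and 5.96. Uchl1 went from 9026 and 9076 TPM to 833 and 751 (-3.52), Ccno from 1808 and 1707 to 243 and 192 (-3.02), and Gja4 from 573 and 580 to 71.5 and 60.9 (-3.11). Lhx8 went from 417 and 431 TPM to 24.2 and 22.2 (-4.14). Eif4e1b (-1.92) and Astl (-1.39) fell less, to 456 and 392 TPM and to 712 and 567 TPM. Rspo2, Gtf2a1l and Rnf168 were not called (-0.58, -0.74 and -0.51).

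**Figure D4:**
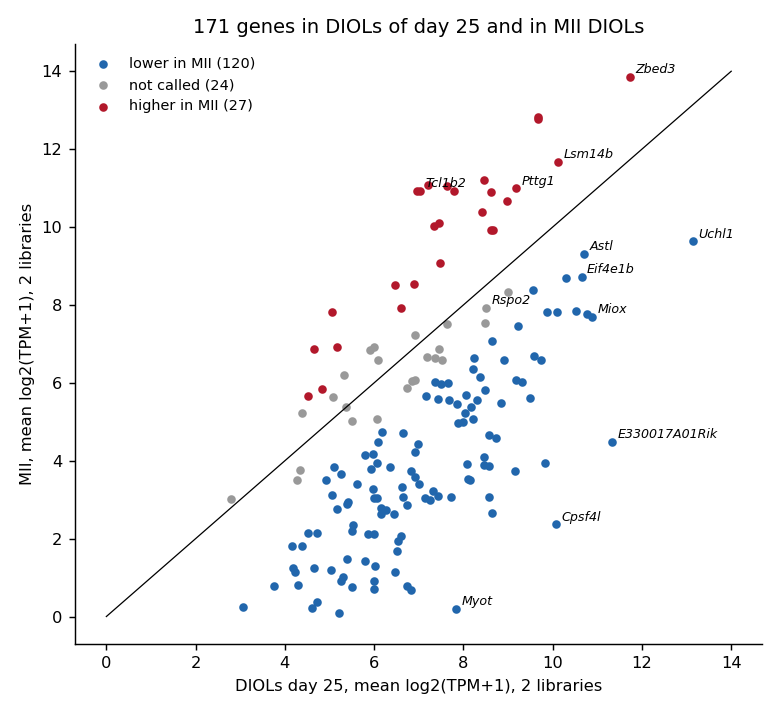
Mean log2(TPM + 1) of the 171 genes in DIOLs of day 25 (horizontal) and in MII DIOLs (vertical), 2 libraries each; the line marks equal values and colours mark the 27 genes called higher, the 120 called lower and the 24 not called. Zbed3 is the highest gene in MII, and Cpsf4l and Myot lie farthest below the line.

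Competent GV oocytes from ovaries were compared with the same MII libraries: 107 genes were lower and 21 higher in MII, where 31.9% of all genes were lower and 18.3% higher. The members' median log2 change was -1.83, against -0.13 for all genes and -0.56 for the other genes at 10 TPM or more in wild type. All genes are thus not a comparison of like level. With rescaled values the counts were 87 and 32. Tcl1b2 (2.61), Jag1 (2.31) and Tcl1 (2.03) were higher in MII than in competent GV oocytes. Mos was not called in that comparison (0.85), since competent GV oocytes held 1390, 1314 and 1253 TPM, well above DIOLs of day 25. Accsl and Zbed3 were likewise not called (0.74 and 0.89). Fbxo40 (-5.59) and Fam151a (-5.72) were among the 4 largest falls.

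Other genes of the same roles divided as well. Of the other 25 genes of RNA storage and translation 12 rose and 12 fell between DIOLs of day 25 and MII, of the other 29 cell-cycle genes 12 rose and 10 fell, and of the other 14 ubiquitin genes 7 rose and 3 fell. Of 12 tested TCL1-family and orphan oocyte genes outside the set, 4 rose and 2 fell, with Tcl1b3, Tcl1b4 and Tcl1b5 among the called genes. Of the 16 other reported targets of oocyte factors, many of which have names on the list of genes left out, 8 fell and 4 rose. Among the 171 genes 70.2% fell, beside the 51.7% of other genes at this level.

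The 3′ ends were searched for the cytoplasmic polyadenylation element, the word through which CPEB proteins lengthen poly(A) tails during maturation. TTTTAT or TTTTAAT, on the transcript's strand in the last 100 bases of the principal GENCODE M21 transcript, was found in 7 of the 27 higher genes (25.9%), 6 of the 24 not called (25.0%) and 9 of the 116 lower genes with a transcript (7.8%). In other genes at 10 TPM or more the shares were 35.5%, 24.1% and 10.6%, in the same order, and these shares were not tested. The poly(A) signal AATAAA or ATTAAA was in 27 of 27, 21 of 24 (87.5%) and 96 of 116 (82.8%), and in 86.8%, 85.3% and 77.5% of the other genes. The libraries were poly(A)-selected, and tail length was not measured. The 30 bases around these words are shown for 3 of the higher genes. Capitals mark the element and the signal that lie closest together, which overlap in Zbed3 and Dusp14. Zbed3 holds a further TTTTAT, in lower case, near the end of the bases shown.
E330034G19Rik: gagaatgTTTTATgaatAATAAActtttgt
Zbed3: ccttttttttTTTTAATAAActtttattta
Dusp14: ttagcgttatTTTTAATAAActtgcttaac

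Among the DIOL and GV groups the 171 genes did not share a single peak. The highest group mean was in incompetent GV oocytes for 39 genes, competent GV oocytes for 28, DIOLs.S of day 14 for 26, DIOLs of day 25 for 25 and MII DIOLs for 23. Differences between these top groups were tested only where given above.

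**Figure D5:**
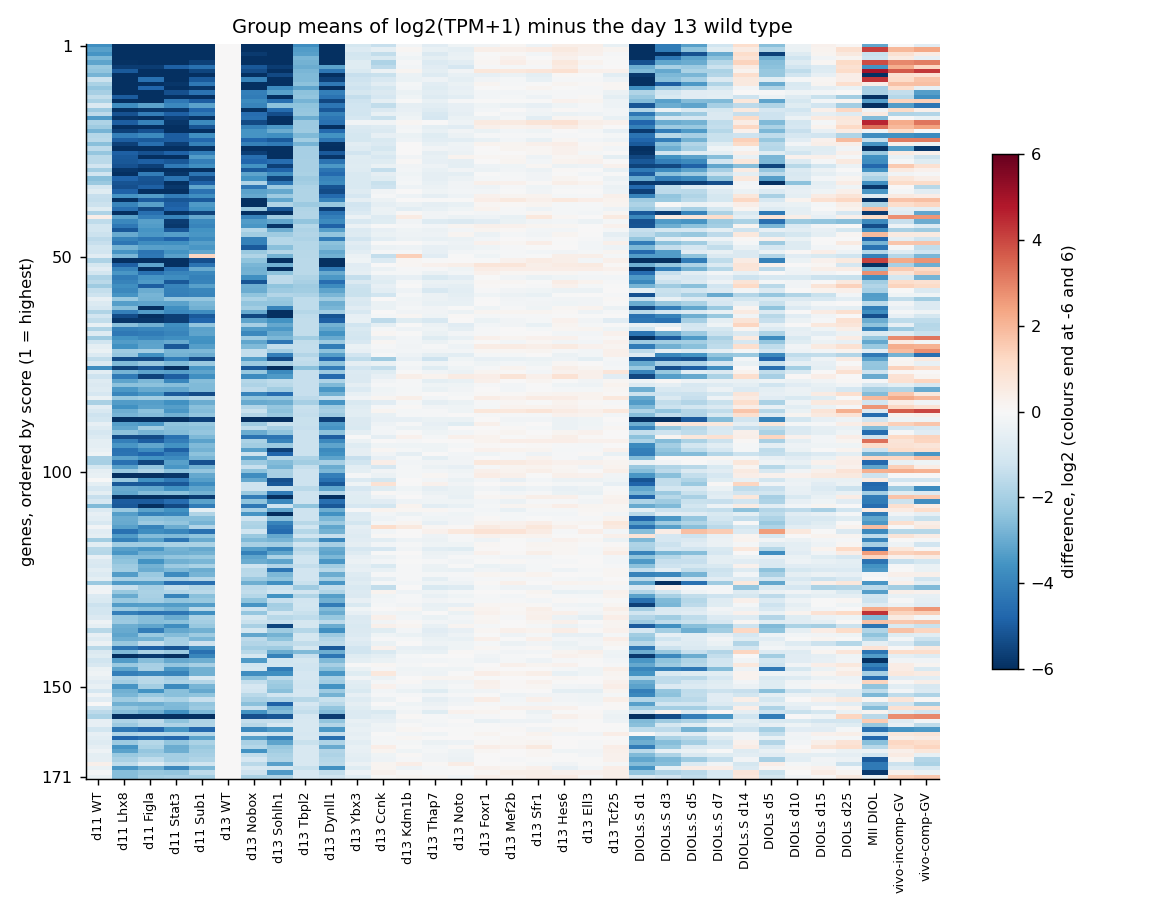
Group means of log2(TPM + 1) minus the day 13 wild-type mean for the 171 genes (vertical, by score) in each group (horizontal), with colours ending at -6 and 6. The 7 knockouts that chose the genes, the libraries labelled Sub1 knockout and DIOLs.S of day 1 are mostly blue, while MII DIOLs mix deep blue and red, with 120 genes lower and 27 higher than in DIOLs of day 25.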

How the data were processed

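Poly(A)-selected RNA of sorted cultured oocytes, DIOLs and GV oocytes was sequenced from directional libraries, per the labels' protocols. The deposited unit is TPM per gene, made by the authors. The submitters' processing notes name STAR 2.6.0, featureCounts 1.6.0 and mm10; the strand setting, the annotation and the treatment of multi-mapping reads are not given in the sources used here. Sequencing depth is unknown from TPM, so no counting interval is given. The table holds 15163 lines, of which 1 was incomplete and 22 had date-like names, leaving 15140 genes. Of its 148 value columns, 68 matched a sample of the series by name and 80 belong to no sample of it and were not used; 3 of the 71 samples matched no column. Its genes sum to between 0.521 and 0.708 of each library's TPM.

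Values were log2(TPM + 1), so that changes of low genes are understated. Groups were compared with limma 3.58.1 (R 4.3.3; trend, robust), in 1 fit of the 26 DIOL and GV libraries (11603 genes with at least 1 TPM in 2 libraries, 14 residual degrees of freedom) and 1 of the 42 cultured oocyte libraries (12306 genes, 21 degrees of freedom), with Benjamini-Hochberg adjustment over all tested genes. Calls needed an adjusted p under 0.05 and a log2 change of at least 1. On simulated data for DIOLs day 25 against day 15 (11470 genes), 99% of changes of log2 1.5 and 100% of log2 3 were recovered, with 5 unchanged genes called.

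The members, lists and tests were chosen with earlier results of these data known. Genes named are the 15 of highest score, the 4 largest rises and falls of each DIOL or GV comparison and the 3 largest of each knockout, up to 4 members of each list by score, the 3 genes on each side of the score limit and the 5 of highest level, without predicted genes in the comparisons; others were named after their values were seen. Alternatives were another pseudocount (0.1), no filter, rescaling by the median of ratios, a replicate block, a single model of all samples, no fold limit and each library left out. A further alternative, which was not planned, left the Sohlh1 knockout libraries out of the fit of cultured oocytes.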

Additional observations from a re-analysis of the deposited data

How the results depend on the processing

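Of 188 recomputed counts of called members, 171 stayed within 1.5 times the value given, and 17 did not. Without a limit on fold size the counts were 90 (DIOLs.S day 5 against 3), 115 (7 against 5), 143 (14 against 7), 122 (DIOLs day 10 against 5), 74 (15 against 10), 79 (25 against 15), 86 (DIOLs.S against DIOLs at day 5), 128 and 123 (DIOLs.S day 14 and DIOLs day 25 against incompetent GV oocytes), 102 (competent against incompetent GV oocytes) and 234 over the 11 knockouts, which follows from the looser rule. Rescaling by the median of ratios gave 18 (DIOLs day 15 against 10), 17 (25 against 15) and 75 over the 11 knockouts, against 7, 11 and 21 as given; it raised the falls in the Ybx3 knockout from 11 to 51 and in the libraries labelled Ccnk knockout from 9 to 19, and in DIOLs.S against DIOLs at day 5 the split of 17 lower and 2 higher became 13 and 4. The cause of these changes was not tested. Leaving out 1 library at a time gave 7 to 15 calls (DIOLs day 15 against 10), 7 to 14 (25 against 15) and 15 to 34 over the 11 knockouts; the 15 and the 7 of the DIOLs steps are without DIOLs day 15 replicate 2, and the 34 without replicate 1 of the Ybx3 knockout. Of 1119 recomputed calls of named genes, 1092 were kept, 27 missed the threshold and none turned direction.

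With the replicate number as a block the counts were 156 (DIOLs.S day 14 against 1), 108 (DIOLs day 25 against 5), 147 (MII against DIOLs day 25) and 22 over the 11 knockouts, and no count moved by over 1.5 times. In the GV groups same-numbered libraries had correlations of deviations of -0.097, -0.005 and -0.041, so the libraries share only a number. The choice of genes kept 170 of 171 genes with a pseudocount of 0.1 and 151 with rescaled values. Depth is unknown, so what it limits could not be measured.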
